A study of Mus musculus with 12 samples.

Results

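The major urinary proteins (MUPs) are small lipocalins that the male mouse liver makes in large amounts and that pass through the blood into the urine. They carry volatile signals in a central pocket, and darcin, the product of Mup20, is itself a male scent signal that females learn. The genes lie in a row on mouse chromosome 4, many of them as near-identical copies, and their liver mRNA depends on growth hormone, acting through STAT5, and on androgen. The genes examined were Mup1, Mup2, Mup3, Mup5, Mup20 and Mup21, looked up by symbol in a table of 22276 gene symbols. Of these 6 genes, 5 had a row with a value in every library, and Mup2 had no row. A further 14 rows belonged to other Mup genes, and they are used below to show how far the copies can be told apart.

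Narciclasine (ncls) is a plant alkaloid that was given to mice made obese by diet. All animals were male C57BL/6J mice, 17 weeks of age, kept from week 8 on chow (normal chow diet, NCD) or on high-fat food (HFD) and dosed by oral gavage from week 10 with the cyclodextrin vehicle (veh) or, in 1 of the groups, ncls. The groups were NCD-veh, HFD-veh and HFD-ncls. Brown adipose tissue (BAT), white adipose tissue (WAT), quadriceps muscle and liver gave 1 RNA-seq library per group each, 12 in all, and the number of mice behind a library is not given in the sources used here. With 1 library per organ and group there were no replicates, so no difference below has an error or a test, and a change in the number of cells of a type cannot be told apart from a change in RNA per cell.

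Levels are FPKM, fragments scaled to the length of the transcript and to the mapped fragments of the library. Each value is relative to the other RNA of its library, which limits comparisons between organs. The summed FPKM ran from 254403 in HFD-veh BAT to 516221 in NCD-veh liver. The file gives no read counts. The size of the smallest steps in the FPKM values put the libraries at roughly 18800000 to 26700000 fragments, at which 1 fragment on a Mup transcript is worth roughly 0.0404 to 0.0573 FPKM, and lower values are parts of a fragment shared out between copies. Ratios are log2 of (FPKM + 0.1), for genes at 1 FPKM or more in at least 1 of the libraries compared. This scale understates the change of genes near 0, and "past 2-fold" means a log2 ratio beyond 1 in either direction. Where 3 values of an organ are listed, their order is NCD-veh, HFD-veh, HFD-ncls. The organ labels were checked against marker genes. All 8 adipocyte markers were at 1 FPKM or more in the 3 WAT libraries, all 6 brown adipocyte markers in the 3 BAT libraries, and every fast-twitch muscle marker with a value, 11 of 12, in the 3 muscle libraries. Of the 27 liver markers, 26 had a value in liver and all 26 passed 1 FPKM there. The marker without a liver value was Alb, the albumin gene. RNA of a second organ was also measured. The HFD-veh muscle library held all 27 liver markers at 1 FPKM or more, against 3 in each of the other muscle libraries. The HFD-veh liver library held 10 of 12 muscle markers at that level, against 1 in each of the other liver libraries. The BAT libraries held 12, 12 and 10 of the 12 muscle markers at that level, summing to 2270, 953 and 136.0 FPKM.

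The sequences show which of the genes short reads can tell apart. In the mm9 mouse genome, with GENCODE annotation, each of the 6 is a protein-coding gene on the minus strand of chromosome 4. Mup1 (ENSMUSG00000078683.2) spans chr4:60510884-60514832, Mup2 (ENSMUSG00000078688.4) chr4:60080259-60167161 and Mup5 (ENSMUSG00000058523.2) chr4:61492353-61496267. Mup20 (ENSMUSG00000078672.2) spans chr4:61711268-61715192, Mup3 (ENSMUSG00000066154.4) chr4:61744510-61748376 and Mup21 (ENSMUSG00000066153.2) chr4:61808966-61811897. The stretch of 90 coding bases shown here was chosen among those without gaps and within a single exon. It has the most differences from Mup1, summed over the other genes, and lies in exon 2 of each. It is at chr4:60514194-60514283 in Mup1, chr4:60152131-60152220 in Mup2, chr4:61714554-61714643 in Mup20, chr4:61495629-61495718 in Mup5, chr4:61747874-61747963 in Mup3 and chr4:61811269-61811358 in Mup21. Each is written 5′ to 3′ on the minus strand, and capitals mark bases that differ from Mup1.
Mup1: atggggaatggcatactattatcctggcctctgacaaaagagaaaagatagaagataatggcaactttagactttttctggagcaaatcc
Mup2: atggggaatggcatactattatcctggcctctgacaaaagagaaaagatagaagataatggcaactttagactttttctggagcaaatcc
Mup20: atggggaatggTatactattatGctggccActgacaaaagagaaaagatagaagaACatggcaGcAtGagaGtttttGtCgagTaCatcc
Mup5: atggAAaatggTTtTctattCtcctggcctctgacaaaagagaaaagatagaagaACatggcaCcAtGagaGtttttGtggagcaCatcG
Mup3: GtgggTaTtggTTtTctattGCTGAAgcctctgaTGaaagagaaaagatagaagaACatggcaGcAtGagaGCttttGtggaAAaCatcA
Mup21: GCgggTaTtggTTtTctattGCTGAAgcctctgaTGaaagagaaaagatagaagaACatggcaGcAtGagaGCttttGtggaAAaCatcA

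Mup1 and Mup2 do not differ in this stretch, while Mup20 differs from Mup1 at 13 bases, Mup5 at 15, Mup3 at 26 and Mup21 at 27. Over the whole coding sequence the identity with Mup1 was 99.4% for Mup2, 90.7% for Mup20, 90.2% for Mup5, 84.1% for Mup21 and 82.8% for Mup3. Mup3 and Mup21 were the closest pair among the diverged genes, at 94.8%. The annotation held 21 Mup genes with a coding transcript, and they fell into 15 similar genes and 6 diverged ones. The similar genes, with Mup1 and Mup2 among them, were 98.7% to 99.6% identical to Mup1 in coding sequence. The diverged genes were Mup3, Mup4, Mup5, Mup6, Mup20 and Mup21, at 82.8% to 90.7%.

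The share of 50-base words of a transcript that occur in no protein-coding transcript of another gene was taken. It gives the part of it that a read of that length could place among those transcripts. Pseudogenes and the rest of the genome were not searched. This share was 5.24% for Mup1 and 0 for Mup2, and at most 21.9% for any similar gene. It was 95.3% for Mup20, 84.1% for Mup3, 83.9% for Mup5 and 80.9% for Mup21. For reads of that length, the level printed for Mup1 would rest largely on sequence shared with its copies, and those of Mup3, Mup5, Mup20 and Mup21 mostly on sequence of their own. Of the 13 rows for similar genes, the rows for Mup7, Mup10, Mup11 and Mup14 had no value in the 3 liver libraries and a value in the other 9. How the reads of these genes were handled in liver was not tested.

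RefSeq's table (build GRCm38.p6) held promoters of 3 of the 6 genes. Those of Mup3 and Mup21 are shown as the pair of diverged genes closest in coding sequence, and that of Mup2 because it stands for the similar genes. Each line gives the 100 bases before the annotated start, 5′ to 3′ on the minus strand, with the letters TATATAA in capitals. The windows are chr4:60139857-60139956 for Mup2, chr4:62087318-62087417 for Mup3 and chr4:62150842-62150941 for Mup21.
Mup2: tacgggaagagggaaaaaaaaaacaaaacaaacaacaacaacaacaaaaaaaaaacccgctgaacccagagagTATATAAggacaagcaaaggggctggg
Mup3: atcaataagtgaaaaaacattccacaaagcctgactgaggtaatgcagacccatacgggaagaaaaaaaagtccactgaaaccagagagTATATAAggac
Mup21: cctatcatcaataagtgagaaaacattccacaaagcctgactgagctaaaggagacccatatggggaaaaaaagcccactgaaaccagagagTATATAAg

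The match began 27 bases before the annotated start in Mup2, 11 in Mup3 and 8 in Mup21. Searched on both strands from 250 bases before to 50 after the start, TATATAA occurred in 13 of 14 Mup promoters in the table and in 3.24% of all 32851 promoters. TTCNNNGAA, the spaced palindrome that STAT5 proteins bind, occurred in 0 of the 14 windows and in 8.30% of all promoters. These letters are a description of the windows and say nothing of binding.

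**Figure D1:**
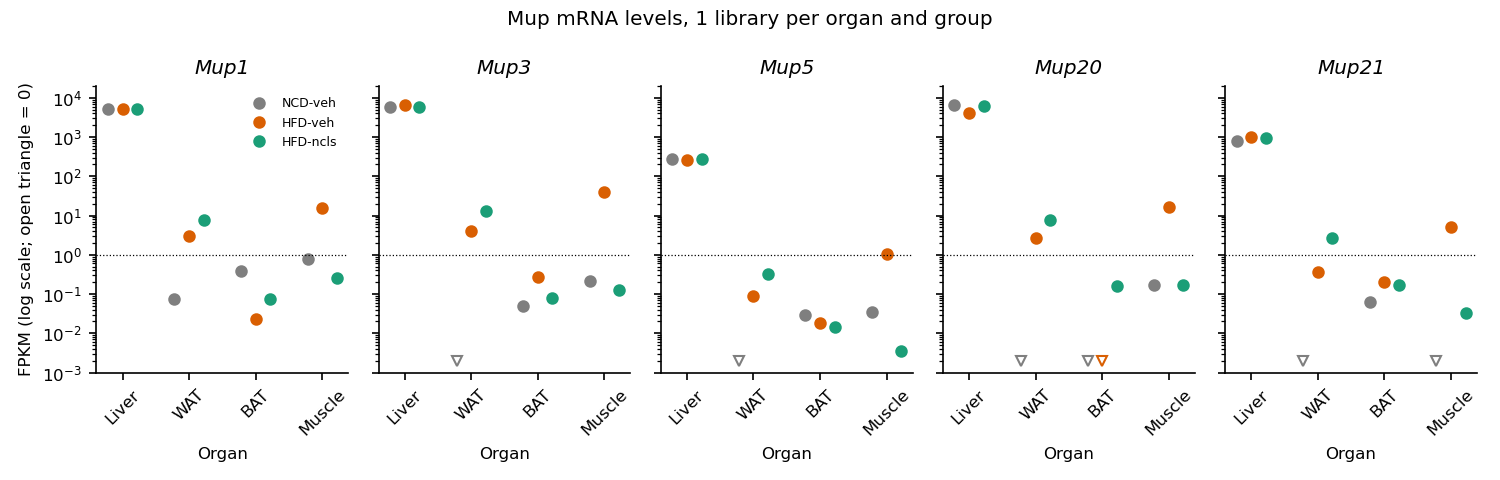
FPKM of Mup1, Mup3, Mup5, Mup20 and Mup21 (log axis) in each of the 12 libraries, 1 point per library, coloured by group, with open triangles for values of 0 and a dotted line at 1 FPKM. Liver values lie between 257 and 6749 FPKM, and outside the liver values of 1 FPKM or more occur only in HFD-veh WAT, HFD-ncls WAT and HFD-veh muscle.

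In liver the Mup mRNAs were among the most abundant of all, and none of the 5 genes was past 2-fold between any pair of groups. That was so for most genes compared, with at most 2.86% past it higher and 2.62% lower. Mup20, the darcin gene, stood at 6749 FPKM in the NCD-veh library, 4180 with HFD-veh and 6161 with HFD-ncls. It was the highest of the 5 genes in NCD-veh and HFD-ncls liver and the third in HFD-veh liver. Mup3, one of the diverged genes, stood at 5763, 6511 and 5943 FPKM. Mup1, the namesake of the similar group, stood at 5324, 5293 and 5144 FPKM. The values of Mup1 lay within a narrower range than those of Mup3 or Mup20.

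Mup21, the close relative of Mup3, was lower, at 808, 1028 and 966 FPKM. Mup5, best known from salivary gland, was the lowest of the 5 in each liver library, at 281, 257 and 272 FPKM. By rank among all symbols with a liver value, Mup20 went from 8 to 21 and back to 8 across the 3 groups. Mup3 went from 12 to 6 to 9, and Mup1 from 17 to 10 to 13. Mup21 ranked 89, 64 and 66, and Mup5 216, 233 and 229. The 5 genes together made up 3.67%, 3.60% and 3.69% of the summed FPKM of the 3 liver libraries, and the 15 Mup rows with liver values 11.1%, 11.5% and 10.97%. Genes without a liver value, Alb, Mup7, Mup10, Mup11 and Mup14 among them, are left out of these ranks and sums.

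**Figure D2:**
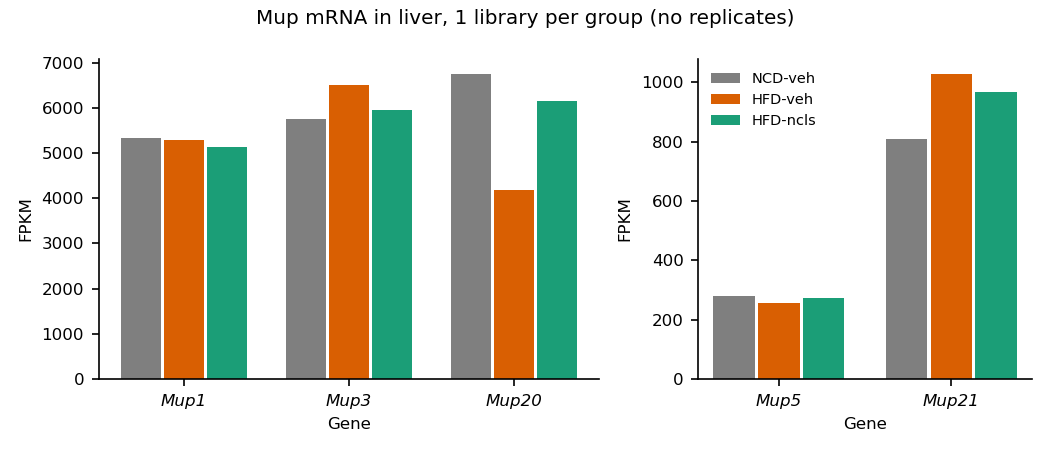
FPKM in liver for the 5 genes, bars by group, 1 library per group with no error bars since there were no replicates, and a separate linear axis from 0 for the less abundant Mup5 and Mup21. The widest gap between groups is that of Mup20, with 4180 FPKM in HFD-veh liver against 6749 in NCD-veh and 6161 in HFD-ncls.

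The first question in liver was how the levels differed with the high-fat diet. In HFD-veh against NCD-veh liver, 0 of the 5 genes were past 2-fold higher and 0 past 2-fold lower, where 2.86% of 10016 genes compared were past it higher and 2.27% lower. Mup20 had the largest difference of the 5, a log2 ratio of -0.69, and Mup21 the next, at 0.35. The log2 ratios of Mup3, Mup5 and Mup1 were 0.18, -0.13 and -0.01. The median over the 5 was -0.01, against 0.04 over all genes.

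The second question was how the levels differed with ncls on the high-fat diet. In HFD-ncls against HFD-veh liver, again 0 of 5 passed 2-fold in either direction, with 1.00% of 9956 genes past it higher and 1.31% lower. Mup20 had a log2 ratio of 0.56, the reverse in sign of its ratio with diet. The HFD-veh liver library takes part in both ratios, so both rest on its 1 value for Mup20. The other 4 genes lay between -0.13 for Mup3 and 0.08 for Mup5.

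In HFD-ncls against NCD-veh liver 0 of 5 passed 2-fold, with 2.58% of 9961 genes past it higher and 2.62% lower. The largest log2 ratio of the 5 was 0.26, for Mup21, and that of Mup20 was -0.13. The HFD-veh liver library, the one with the low Mup20 value, was also the one with muscle RNA. The 12 fast-twitch muscle markers summed to 75.2 FPKM there, against 2.18 in NCD-veh and 3.15 in HFD-ncls liver. The 11 of them with a value in muscle summed to 112205 FPKM in NCD-veh muscle. Whether that RNA had a part in the Mup20 value was not tested.

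**Figure D3:**
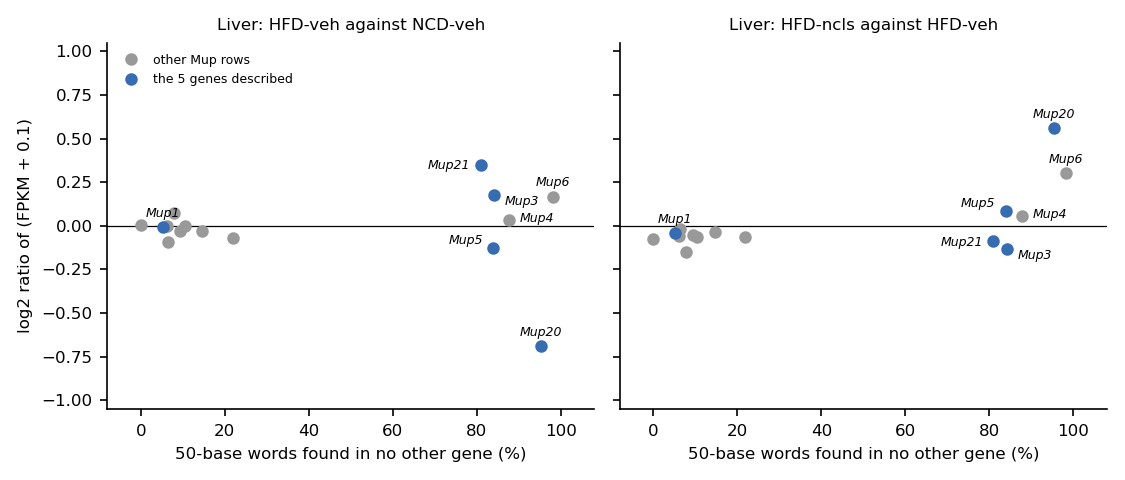
Log2 ratio of (FPKM + 0.1) in liver (vertical axis) against the share of each transcript's 50-base words found in no protein-coding transcript of another gene (horizontal axis), 1 point for each of the 15 Mup rows with liver values (the 5 genes in blue, other Mup rows in grey), for the diet (left) and ncls (right) comparisons. The similar rows cluster at 21.9% or below with ratios near 0, and the diverged rows spread from -0.69 to 0.56.

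The diverged rows differed more among themselves than the similar rows did. Over the 9 similar rows with liver values, levels lay between 2798 and 5666 FPKM in NCD-veh, 2946 and 5693 in HFD-veh, and 2656 and 5410 in HFD-ncls liver. Their log2 ratios lay between -0.09 and 0.07 with diet and between -0.15 and -0.02 with ncls. With so much shared sequence these rows are not separate measurements. Summed, the 9 rows came to 43744, 43142 and 41461 FPKM. Over the 6 diverged rows the ratios ran from -0.69 to 0.35 with diet and from -0.13 to 0.56 with ncls. Mup4, known from nasal and lacrimal glands, stood at 75.1, 76.8 and 79.98 FPKM in the 3 livers, and Mup6 at 15.2, 17.1 and 21.1.

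Some genes of the same pathways differed further than the Mup genes in the same liver libraries. Beside each list count below stand the shares of all genes compared in liver. With diet 2.86% were past 2-fold higher and 2.27% lower, and with ncls 1.00% and 1.31%. In the growth hormone axis, 0 of 9 genes passed 2-fold with diet, and 1 was higher and 1 lower with ncls. Cish, a STAT5 target that damps cytokine signalling, stood at 2.47, 3.02 and 13.5 FPKM in liver, a log2 ratio of 2.12 with ncls. Prlr, the prolactin receptor, stood at 33.4, 37.2 and 16.0 FPKM, a log2 ratio of -1.22 with ncls. Socs2, a second feedback inhibitor, stood at 11.7, 6.38 and 11.6 FPKM, with log2 ratios of -0.87 with diet and 0.85 with ncls. Socs2 thus had its lowest liver value in the same library as Mup20.

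The receptor and its signalling genes differed less between the 3 livers. Ghr, the growth hormone receptor, stood at 169, 214 and 184 FPKM, and the kinase gene Jak2 at 1.88, 2.55 and 1.55. Stat5a stood at 3.96, 3.58 and 3.56 FPKM, and Stat5b, the form that matters most for the male liver pattern, at 9.23, 8.09 and 7.18. Igf1, the hormone through which growth hormone acts on growth, stood at 152, 151 and 167 FPKM, and Igfals, its carrier in blood, at 58.9, 49.8 and 51.9.

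Among 12 liver transcription factors, 11 could be compared, and 0 passed 2-fold with diet while 1 was higher and 1 lower with ncls. Bcl6, a repressor that competes with STAT5 at liver genes, stood at 13.3, 14.3 and 2.39 FPKM, a log2 ratio of -2.53 with ncls. Onecut1, a hepatocyte factor, stood at 2.75, 4.66 and 10.5 FPKM, a log2 ratio of 1.16. Both had their far value in the HFD-ncls library, in which 0 of the 5 Mup genes was past 2-fold from either other liver.

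Male-biased liver genes, the class to which the Mup genes belong, were compared as a list of 17 that held no Mup gene. With diet 0 were past 2-fold higher and 2 lower, and with ncls 0 passed in either direction, with medians of -0.15 and 0.21. Elovl3, a fatty acid elongase, stood at 154, 41.3 and 80.1 FPKM, and Serpina1e, an alpha-1-antitrypsin, at 10319, 5060 and 8052. Both were lowest in HFD-veh liver, as Mup20 was, and both were named because they were past 2-fold lower with diet. The rest of the list was mixed. Cyp4a12a and Gstp1 were also lowest in HFD-veh liver, while Slco1a1 and Moxd1 were highest there. Of 22 female-biased liver genes 12 could be compared in each of these comparisons, and with diet 5 were higher and 2 lower. With ncls 0 were higher and 6 lower, with a median of -0.96. Both counts share the HFD-veh library. Cyp2b9, Cyp2b10 and Cyp2b13 passed the filter only through that library, so the direction of their ratios was fixed by the filter.

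The female-biased genes named by size of change were mostly cytochromes P450. Cyp2b9 stood at 0.0525, 27.0 and 0.403 FPKM, and Cyp2b13 at 0.0175, 1.47 and 0.0409. Cyp4a14, a fatty acid hydroxylase, stood at 326, 233 and 32.6 FPKM, and Acot3, an acyl-CoA thioesterase, at 15.2, 38.2 and 4.77. Cyp3a44 stood at 31.7, 9.59 and 5.11 FPKM and Cyp3a16 at 39.0, 12.6 and 6.64. Cyp2b9, Cyp2b13 and Acot3 were highest in HFD-veh liver, and the other 3 were highest in NCD-veh liver.

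The MUPs belong to the lipocalin family, and 11 other lipocalin genes were listed beside them. With diet 0 were higher and 5 lower of the 9 compared, where 2.27% of all genes were lower. With ncls 0 of 8 passed in either direction. Lcn2, an iron-siderophore carrier of the acute phase, stood at 681, 10.2 and 11.6 FPKM. The orosomucoid genes Orm1, Orm2 and Orm3, also acute-phase genes, had log2 ratios of -2.23, -3.76 and -2.47 with diet. Ambp, the precursor of alpha-1-microglobulin, stood at 2802, 1302 and 1466 FPKM. These 5 were highest in NCD-veh liver, as Mup1, Mup5 and Mup20 were and Mup3 and Mup21 were not. The NCD-veh level was 1.61 times the HFD-veh level for Mup20 and 1.09 times for Mup5. For Mup21 the HFD-veh level was 1.27 times the NCD-veh level. Mup1 and Mup3 were within 1.13-fold between these 2 libraries.

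**Figure D4:**
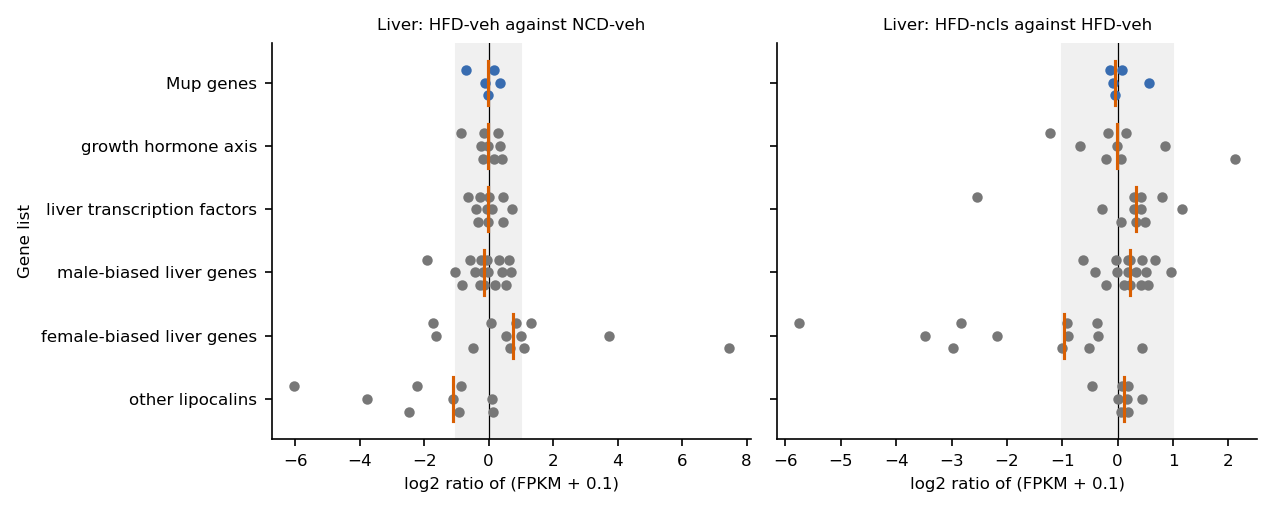
Log2 ratio of (FPKM + 0.1) in liver for the 5 Mup genes and 5 gene lists, 1 point per gene, with an orange line at each median and grey shading within 2-fold, for the diet (left) and ncls (right) comparisons. The Mup genes stay inside the shading, while 6 female-biased genes lie below it with ncls. Among the 6, Cyp2b9, Cyp2b10 and Cyp2b13 passed the filter only through HFD-veh liver.

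In WAT the Mup mRNAs were close to 0 in the NCD-veh library, higher in HFD-veh and highest in HFD-ncls. Mup3 stood at 0, 4.03 and 12.8 FPKM in that order, and Mup20 at 0, 2.72 and 7.80. Mup1 stood at 0.0769, 2.97 and 7.52 FPKM. All 3 kept this order, and their HFD-ncls values were at most 0.215% of the level in HFD-ncls liver. Mup21 stood at 0, 0.368 and 2.65 FPKM, and Mup5 at 0, 0.0899 and 0.326. Mup5 did not reach 1 FPKM in any WAT library and was not compared.

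In HFD-veh against NCD-veh WAT, 3 of the 3 genes that could be compared were past 2-fold higher, with 5.24% of 12208 genes past it. Mup1 had a log2 ratio of 4.12, and Mup3 and Mup20 are listed at 0 in NCD-veh WAT. In HFD-ncls against HFD-veh WAT, 4 of 4 were past 2-fold higher, with 1.49% of 12152 genes past it. The FPKM ratio was 2.53 for Mup1, 2.86 for Mup20, 3.18 for Mup3 and 7.20 for Mup21, the last from a HFD-veh value worth roughly 4.92 fragments. In HFD-ncls against NCD-veh WAT, 4 of 4 were higher, with 7.11% of 12357 genes past 2-fold higher. A gene that passed the filter only through the library where it was high had to differ, so these counts describe the 3 or 4 genes and no more.

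Many liver markers were also higher in WAT with diet and with ncls. Of the 27, 5 were at 1 FPKM or more in NCD-veh WAT, 14 in HFD-veh and 23 in HFD-ncls, and 9, 0 and 0 were listed at 0. Alb, the serum albumin gene, stood at 4.79, 25.7 and 94.1 FPKM, and Ttr, the thyroxine carrier transthyretin, at 0, 2.66 and 10.5. With diet 10 of 14 liver markers compared were past 2-fold higher and 1 lower, with a median log2 ratio of 3.06, beside 4.82 for the 3 Mup genes compared and 0.03 for all genes. With ncls 18 of 23 liver markers compared were past 2-fold higher, with a median log2 ratio of 1.67, beside 1.56 for the 4 Mup genes and 0.04 for all genes. Markers compared that were below 1 FPKM in NCD-veh WAT with diet, or in HFD-veh WAT with ncls, passed the filter only through the higher library. The direction of their ratios was fixed by the filter. The markers' summed level in the 3 WAT libraries, 2536, 2217 and 2925 FPKM, was set mainly by Hp and Cyp2e1, which adipose tissue makes itself. Cyp2e1 stood at 1053, 438 and 409 FPKM and Tdo2, a tryptophan oxygenase, at 0.797, 0.599 and 2.08, so these did not follow the order of the Mup genes. The adipocyte markers did not pass 2-fold with ncls in any of 8 cases, and all 7 epididymis markers were at 0 in all 3 WAT libraries. The part of liver RNA in the Mup levels of WAT was not tested.

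In quadriceps muscle the Mup mRNAs were high in 1 library, HFD-veh. Mup3 stood at 0.209, 39.8 and 0.127 FPKM. Mup20 stood at 0.169, 16.6 and 0.166 FPKM, and Mup1 at 0.791, 16.0 and 0.257. The NCD-veh and HFD-ncls values of Mup3 and Mup20 were worth roughly 3.17 to 4.98 fragments each. Mup21 stood at 0, 5.15 and 0.0323 FPKM, and Mup5 at 0.0349, 1.03 and 0.00355, where the last values of both are less than 1 fragment.

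In HFD-veh against NCD-veh muscle 5 of 5 genes were past 2-fold higher, with 3.14% of 9587 genes past it. In HFD-ncls against HFD-veh muscle 5 of 5 were past 2-fold lower, with 2.53% of 9694 genes past it. Both comparisons share the HFD-veh library, so the second count follows from the same 5 high values as the first. All 5 passed the filter only through that library, so both counts were nearly fixed by the filter and describe these 5 genes and no more. The log2 ratios with ncls ran from -3.45 for Mup5 to -7.46 for Mup3. The place of Mup5 depends on the pseudocount, since its log2 ratio was -6.26 with 0.01, beyond the -5.91 of Mup1, and -1.02 with 1. No Mup gene of the 5 reached 1 FPKM in NCD-veh or HFD-ncls muscle, so these were not compared.

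All 27 liver markers moved with the Mup genes in muscle. All 27 were past 2-fold higher in HFD-veh than in NCD-veh muscle and all 27 past 2-fold lower in HFD-ncls muscle than there, with median log2 ratios of 5.25 and -5.45 beside 5.71 and -5.49 for the 5 Mup genes. Alb stood at 0.500, 224 and 0.329 FPKM in the 3 muscle libraries and Ttr at 0.108, 27.0 and 0.140. The summed level of the 27 was 24.7, 641 and 18.1 FPKM, and 8, 0 and 11 of them were at 0. Of 11 fast-twitch muscle markers with a value, 0 passed 2-fold in either comparison. The part of liver RNA in the Mup levels of HFD-veh muscle was not tested.

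In BAT no value of the 5 genes reached 1 FPKM. The highest of the 15 values was Mup1 in NCD-veh, at 0.379 FPKM or roughly 9.37 fragments, and 2 values, those of Mup20 in NCD-veh and HFD-veh, were 0. Mup1 stood at 0.0238 FPKM with HFD-veh, less than 1 fragment, and 0.0740 with HFD-ncls. Mup3 stood at 0.0498, 0.278 and 0.0782 FPKM, and Mup21 at 0.0636, 0.199 and 0.166. Mup5 did not exceed 0.0297 FPKM, and Mup20 stood at 0.161 in HFD-ncls. These single values are too few fragments to order the groups. The 9 similar rows, Mup1 among them, summed to 3.24, 0.143 and 0.531 FPKM, highest in NCD-veh. The fast-twitch muscle markers were also highest in NCD-veh BAT, at 2270 FPKM summed against 953 and 136.0. Against NCD-veh, the median log2 ratio of the 12 was -1.13 in HFD-veh and -3.95 in HFD-ncls BAT. The medians over all genes compared were -0.04 and -0.06. The part of muscle RNA in the Mup levels of BAT was not tested. Of the 27 liver markers, 13, 12 and 9 were at 0 in the 3 BAT libraries.

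In the 3 libraries outside the liver where they reached 1 FPKM, the Mup genes were set against the liver of the same group. In HFD-veh WAT the 5 genes stood at 0.0349% to 0.0651% of their HFD-veh liver level, where the median of 26 liver markers was 0.0717% with quartiles of 0.0520% and 0.105%. In HFD-ncls WAT they stood at 0.120% to 0.274%, beside a marker median of 0.238% and quartiles of 0.207% and 0.332%. In HFD-veh muscle they stood at 0.302% to 0.611%, beside a marker median of 0.613% and quartiles of 0.546% and 0.732%. Of these 15 values 1 was above the marker median, that of Mup21 in HFD-ncls WAT. The others were at 0.487 to 0.997 times the median of the markers in the same library. With the mean of the 3 liver libraries as the reference, Mup3 was also above the median, at 1.04, 1.01 and 1.04 times it in HFD-veh WAT, HFD-ncls WAT and HFD-veh muscle.

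Mup1 and its copies were on the low side of the markers in each of these libraries. Mup1 stood at 0.0560% of liver in HFD-veh WAT, 0.146% in HFD-ncls WAT and 0.302% in HFD-veh muscle, and 7, 0 and 0 of the 26 markers had a lower share, or 11, 4 and 2 with the mean liver reference. The 9 similar rows together ranged from 0.0502% to 0.0565%, from 0.133% to 0.171% and from 0.280% to 0.324% in the same libraries. Mup3 stood at 0.0618%, 0.215% and 0.611%, with 8, 8 and 13 markers below it. By these percents Mup3 was nearer to the markers than Mup1 was, although both are abundant liver mRNAs. The rows for Mup7, Mup10, Mup11 and Mup14 had no value in liver. In HFD-veh muscle they stood at 14.1 to 18.7 FPKM, beside 16.0 for Mup1. The percents of Mup1 and its copies, here and in the libraries below, may thus set reads divided over different rows against each other. Whether this made them low was not tested.

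In NCD-veh muscle, HFD-ncls muscle and NCD-veh BAT the similar rows lay above the marker median instead. In NCD-veh muscle the 9 rows stood at 0.0125% to 0.0184% of liver, beside a marker median of 0.00239% and an upper quartile of 0.00639%. Mup1 stood at 0.0149%, worth roughly 18.6 fragments, with 22 of 26 markers below it. In NCD-veh BAT Mup1 stood at 0.00711%, with 18 of 26 markers below it, and in HFD-ncls muscle at 0.00499%, again with 18 below. In NCD-veh WAT, HFD-veh BAT and HFD-ncls BAT the similar rows lay below the marker medians of 0.00245%, 0.00175% and 0.00390%, at no more than 0.00174%, 0.000468% and 0.00162%. Mup20 stood at 0.00251% in NCD-veh muscle, with 13 markers below it, and is listed at 0 in NCD-veh BAT. Summed, the 9 similar rows came to 6.84 FPKM in NCD-veh and 1.96 in HFD-ncls muscle, against 131.8 in HFD-veh muscle.

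**Figure D5:**
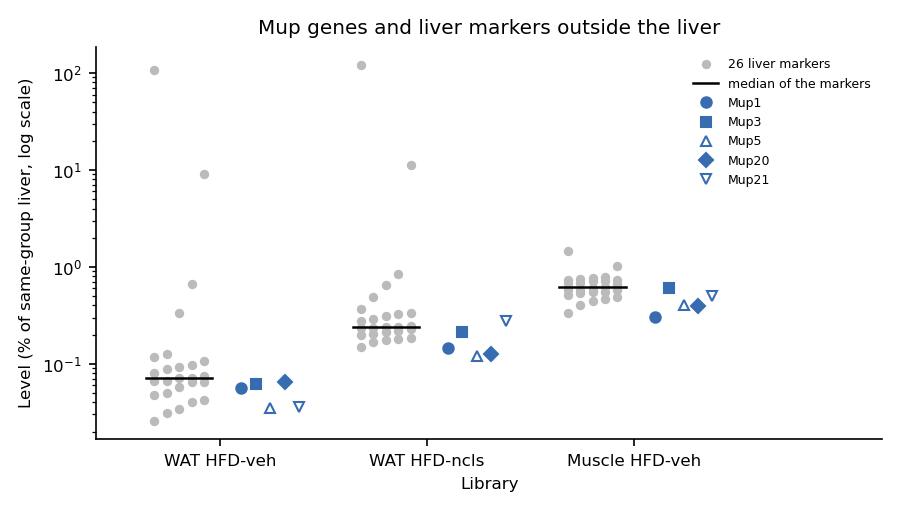
Level as a percent of the liver library of the same group (log axis) in HFD-veh WAT, HFD-ncls WAT and HFD-veh muscle, with 26 liver markers in grey, their median as a black line and the 5 Mup genes in blue. The Mup genes lie near or below the marker medians of 0.0717%, 0.238% and 0.613%, and the 2 grey points far above the rest in each WAT library are Hp and Cyp2e1.

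The proportions among the Mup mRNAs differed between the libraries where they were high. The ratio of Mup3 to Mup1 in FPKM was 1.08, 1.23 and 1.16 in the livers, 1.36 in HFD-veh WAT, 1.70 in HFD-ncls WAT and 2.49 in HFD-veh muscle. It was higher in each of the 3 other libraries than in any liver library. Mup1 shares most of its sequence with its copies. The rows of the copies Mup7, Mup10, Mup11 and Mup14 had values in WAT and muscle but none in liver. Ratios to Mup1 may therefore depend on how shared reads were divided in each organ, which was not tested. The ratio of Mup20 to Mup1 was 1.27, 0.790 and 1.198 in the livers, 0.918 in HFD-veh WAT, 1.04 in HFD-ncls WAT and 1.04 in HFD-veh muscle. The ratio of Mup20 to Mup3, both with mostly unshared sequence, was 1.17, 0.642 and 1.04 in the livers. It was 0.676 in HFD-veh WAT, 0.609 in HFD-ncls WAT and 0.416 in HFD-veh muscle. In liver Mup20 exceeded Mup3 in NCD-veh and HFD-ncls, and it was below Mup3 in these WAT and muscle libraries.

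Over all 12 libraries the genes with the most similar profiles were liver secretory genes. Likeness was the Euclidean distance between log2 (FPKM + 0.1) profiles, each centred on its own mean, over 7470 genes outside the Mup family at 10 FPKM or more in at least 1 library. For Mup1 the 5 nearest were Fga, Fgg, Ambp, Gc and Fgb, at 2.22 to 2.67. For Mup3 the 3 nearest were Gc, the vitamin D carrier, then Ttr and Hamp, at 1.58 to 1.81. For Mup20 they were Ttr, Apoa1, Ahsg, Gc and Hamp, at 1.88 to 2.10.

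The lower-expressed genes had neighbours of their own level. For Mup5 the nearest were C4bp, C9, BC024386, F12 and Mbl2, at 0.85 to 1.02. For Mup21 they were Azgp1, F2, Apoa5, Akr1c6 and Cyp2c29, at 1.58 to 1.87. Among the Mup genes themselves, Mup3 and Mup20 were the closest pair, at 2.31, and Mup3 and Mup5 the farthest, at 6.86.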

How the data were processed

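Total RNA of each organ was sequenced as 1 library per group. Alignment was to mm9, with TopHat 2.0.11, and the authors deposited FPKM values of RefSeq genes from Cufflinks; no further scaling and no rule for reads that match several genes is given in the sources used here. FPKM are not counts, so no count model was run, and with 1 library per group there is no p-value. Depth was estimated from the commonest smallest FPKM step over 8027 genes with 1 transcript and is approximate.

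Computations used Python 3.11.15, numpy 2.4.6, pandas 2.3.3, Biopython 1.88 and matplotlib 3.10.9, and the ratio step was tested on simulated data. The pseudocount was 0.1, the filter 1 FPKM and the threshold 2-fold. Pseudocounts of 1 and 0.01, no filter, a filter of 5 FPKM, rescaling by the median ratio, summed members and a mean liver reference were tried. Mup sequences came from GENCODE and RefSeq tables; identities are from global alignment, and protein sequences were not used here. Genes and lists were chosen with earlier results of these data known. From each of the 5 pathway lists (growth hormone axis, transcription factors, male-biased, female-biased, lipocalins) the text names genes past 2-fold in a liver comparison, at most 6 by size, every growth hormone axis gene, and, chosen after their values were seen, the markers Alb, Ttr, Hp, Cyp2e1 and Tdo2. Some of the genes nearest to Mup3 in profile are not reported here.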

Additional observations from a re-analysis of the deposited data

Results flagged for a closer look

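In HFD-ncls against HFD-veh, 4 genes were past 2-fold higher in WAT and past 2-fold lower in muscle, where 1.49% of genes compared in WAT were past it higher and 2.53% in muscle lower. In muscle the 4 genes passed the filter only through HFD-veh. The log2 ratio was 1.31 in WAT and -5.49 in muscle for Mup1, 1.64 and -7.46 for Mup3, 1.48 and -5.97 for Mup20, and 2.56 and -5.31 for Mup21. The difference between the organs was not tested, since each value comes from 1 library per group. Liver markers had median log2 ratios of 1.67 in WAT and -5.45 in muscle in the same comparisons. Many of these markers passed the filter only through the library where they were high.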

How the results depend on the processing

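No paired analysis was possible because each organ and group had 1 library. Of the 43 counts of genes past 2-fold under alternatives, 39 stayed within 1.5 times the main count, and 4 moved. Without the filter on FPKM, 2 of 5 genes were past 2-fold in each of the 3 BAT comparisons and 1 of 5 in HFD-ncls against NCD-veh muscle, where 0 could be compared with it; these values are worth roughly 18.6 fragments or fewer. Of 189 other values (log2 ratios, medians and percents of liver), 1 crossed 2-fold (Mup5 in HFD-veh against NCD-veh muscle, 0.97 with a pseudocount of 1). Within 2-fold, 2 changed sign: Mup3 in HFD-ncls against NCD-veh liver, 0.04 to -0.0074 when rescaled, and the median in HFD-ncls against HFD-veh liver, -0.04 to 0.10 for the summed genes. The 0 genes past 2-fold in liver held under each alternative. Depth limits the Mup values under 1 FPKM, and shared sequence limits Mup1 in every library.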
